A study of Mus musculus with 8 samples.

Results

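The nerves of the embryonic lung were followed through 32 genes of neural crest, glia and autonomic neurons, taken by symbol from the 55401 genes of the deposited count table. They comprise 7 genes of neural crest and glia, 8 genes of autonomic neuron identity and 17 genes used by most neurons. RNA was sequenced from mouse lung at the embryonic stage E13.5 in 8 libraries. The mutant group (n = 4) is labelled Tbx4tetOcre with MyrfE6, and the control group (n = 4) is labelled cre control. Tbx4 is a T-box gene of lung mesenchyme and tetO marks a tetracycline-responsive transgene; the labels explain neither name and give no inducing drug, and do not say how many embryos made a library or whether libraries came from separate litters. P-values therefore measure the spread between these libraries, which may be technical in part. Sex-linked transcripts, given below, differed within each group, so its 4 libraries are not all repeats of the same sample.

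Totals ranged from 17799899 to 48679134 counts per library, the highest in mutant replicate 2, and 3 counts correspond to at most 0.169 CPM (counts scaled to a common library size of 1 M, after TMM normalization). Myrf, the gene named in the mutant label, averaged 88.4 ± 4.17 CPM in mutant and 114 ± 5.64 CPM in control libraries (SD, n = 4 each; log2 fold change -0.37, SE 0.044, edgeR adjusted p = 0.00021), summed over all its exons. The lung genes Nkx2-1, Epcam, Foxf1, Tbx4 and Sftpc were present in every library, with group means between 74.9 and 272 CPM. Of the 8 lung genes listed 1 fell, the ligand Wnt2 (log2 fold change -0.33, edgeR adjusted p = 0.00852), where 0.931% of all genes tested fell. Log2 fold changes were negative for 6 of the 8. For 2 of them, Wnt2 and Tbx4, every mutant lay below every control, as in 4.06% of all genes. Mutant replicate 4 stood apart from its group: the leading principal component (26.7% of variance) placed it at -4.12 and the other mutants at 12.5 to 23.9, with control replicate 4 at -4.96. Libraries differed in sex-linked transcripts: 4 held both Xist and Y-linked counts (mutant replicates 3 and 4, control replicates 1 and 4). Mutant replicates 1 and 2 held Y-linked counts with Xist under 1 CPM, and control replicates 2 and 3 held Xist with Y-linked genes under 1 CPM. The leading results are also given within the 4 libraries that held both.

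Nerves reach the lung with neural crest cells that leave the hindbrain, enter the foregut and follow the airways as these branch. The progenitors express the transcription factors Sox10 and Foxd3 and can become glia, or neurons that gather in small ganglia along the airway smooth muscle. Neuronal fate brings on paired-like homeodomain factors such as Phox2a, the enzymes of transmitter synthesis and the receptor Ret, which binds ligands of the GDNF (glial cell line-derived neurotrophic factor) family together with a GFR-alpha co-receptor. Several of the genes have other known sources in this organ: Ednrb is expressed in endothelium and mesenchyme, Erbb3 in epithelium, and Uchl1 in neuroendocrine cells of the airway. The counts come from bulk lung RNA, so more cells of a type cannot be told apart from more RNA per cell.

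The promoters of 3 neuron genes are shown because these were the neuron genes with an unadjusted p below 0.01, a log2 fold change of at least 0.5 and a single window in the RefSeq promoter table, a choice made after their values were seen. A window holds 250 bases before and 50 bases after the RefSeq start of the gene (GRCm38.p6), and 21 of the 32 genes had one. They lie at chr2:27165257-27165556 for Dbh, chr8:123411303-123411602 for Tubb3 and chr15:99054924-99055223 for Prph, all on the plus strand. Capitals mark matches on either strand to 5 motifs. TATAAA was searched as the TATA box. The GC box was taken as GGGCGG. Homeodomain cores were taken as TAAT. The left part of the RE1 element, which binds REST, a repressor of neuronal genes, was taken as CAGCACC. Its right part was taken as GGACAGC.
Dbh: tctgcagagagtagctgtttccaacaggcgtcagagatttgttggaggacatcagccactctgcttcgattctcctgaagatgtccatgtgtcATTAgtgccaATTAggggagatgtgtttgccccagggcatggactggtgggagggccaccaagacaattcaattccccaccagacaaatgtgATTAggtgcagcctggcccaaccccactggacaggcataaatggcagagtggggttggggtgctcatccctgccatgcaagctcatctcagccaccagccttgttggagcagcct
Tubb3: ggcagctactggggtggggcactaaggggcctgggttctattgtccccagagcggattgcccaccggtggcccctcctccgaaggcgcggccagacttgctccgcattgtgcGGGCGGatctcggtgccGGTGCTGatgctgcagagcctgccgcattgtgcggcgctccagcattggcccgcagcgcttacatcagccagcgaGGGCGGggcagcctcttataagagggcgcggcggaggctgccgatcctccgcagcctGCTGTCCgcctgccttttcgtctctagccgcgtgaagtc
Prph: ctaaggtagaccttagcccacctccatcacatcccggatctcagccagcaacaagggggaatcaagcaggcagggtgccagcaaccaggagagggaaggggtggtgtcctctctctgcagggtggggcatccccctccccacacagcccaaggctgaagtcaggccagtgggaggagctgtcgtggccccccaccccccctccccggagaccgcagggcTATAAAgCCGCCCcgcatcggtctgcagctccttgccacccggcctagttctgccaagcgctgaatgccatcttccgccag
Dbh held TAAT on the antisense strand 157, 147 and 65 bases before the start, a core present in 58.0% of all 32851 windows. Prph held TATAAA 31 bases before the start, a motif in 13.6% of windows, next to a GC box, which 35.7% of windows hold. Tubb3 held 2 GC boxes and both RE1 parts, which 7.14% and 6.56% of windows hold, far apart rather than joined. No motif was shared by all 3 promoters and no matches overlapped; GC content was 54.0% for Dbh, 67.3% for Tubb3 and 64.7% for Prph, against a median of 52.7% over all windows.

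Of the 32 genes, 28 passed the filter on low counts and were tested. The 4 that did not were S100b and Cdh19 of glia, Th, the rate-limiting enzyme of catecholamine synthesis, and Scg2, a granin of secretory vesicles. S100b had 1, 14, 7 and 4 counts in mutant replicates 1 to 4 and 3, 1, 2 and 1 in control replicates 1 to 4, and Cdh19 had 10, 39, 11 and 4 against 8, 10, 9 and 8. Th had 6, 13, 5 and 4 counts in mutant libraries and 5, 9, 3 and 4 in controls, and Scg2 had at most 2 in any library. Cdh19 had 4 to 39 counts per library, while S100b, Th and Scg2 were at or near 3 counts in several libraries of both groups, and no fold is given for the 4 genes.

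Per kb of exon, levels spanned a wide range. In mutant libraries Uchl1, Ednrb and Gap43 were highest, with Erbb3 next, and in control libraries Ednrb, Uchl1 and Erbb3 were, with Gap43 next. Ednrb was at 23.1 CPM per kb in mutant and 26.9 in control libraries, Uchl1 at 25.6 and 22.7, and Erbb3 at 11.3 and 10.5. Gap43, a protein of axon growth cones, reached 11.6 and 9.92 CPM per kb. The genes that define crest and autonomic neurons were far lower, with Sox10 at 1.28 CPM per kb in mutant and 1.10 in control libraries, Phox2a at 0.504 and 0.285, Dbh at 0.367 and 0.163, and Foxd3 at 0.257 and 0.143. Scg2, at the bottom, was at 0.00967 and 0.00525.

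**Figure D1:**
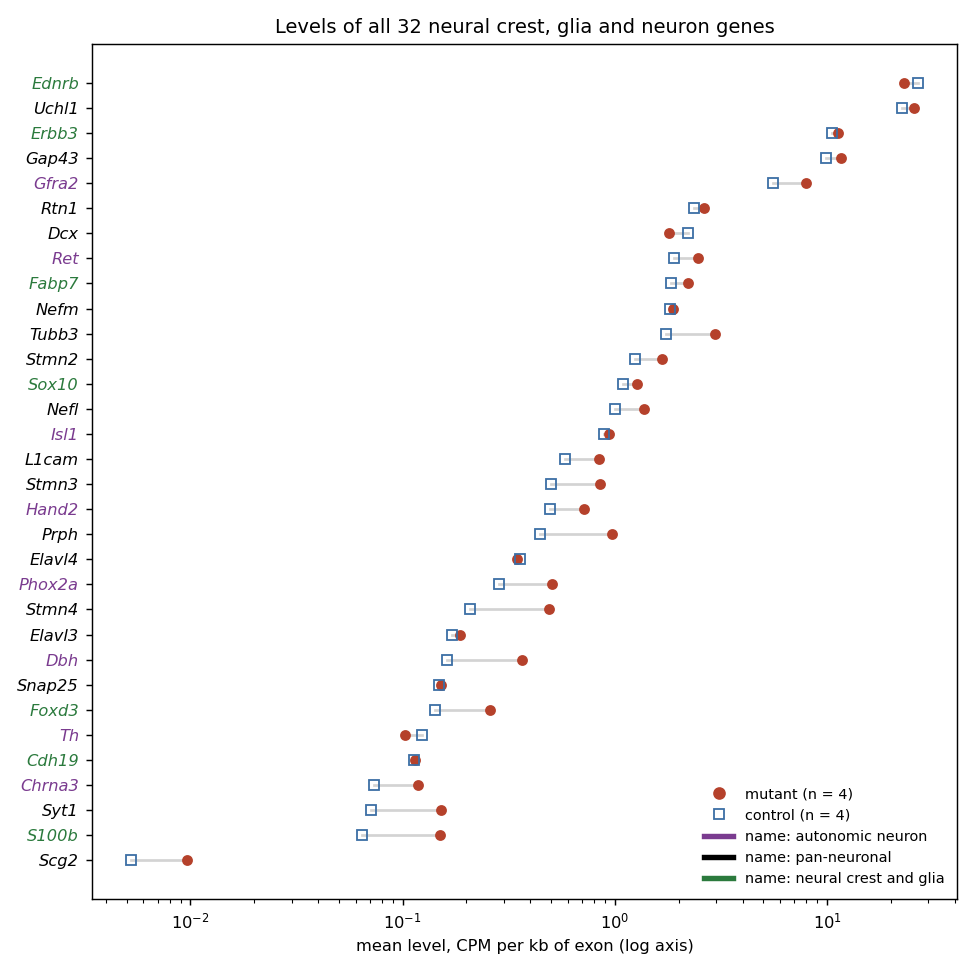
Mean level per kb of exon in mutant (filled circles) and control libraries (open squares), n = 4 each, on a log axis, for all 32 genes ordered by the control level. Ednrb and Uchl1 lie at the top and Scg2 at the bottom; most neuron genes have the mutant circle to the right of the control square.

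Of the 28 tested genes, 1 rose over all genes tested and 0 fell: Ret (edgeR quasi-likelihood test, adjusted p below 0.05), where 1.49% of all 15788 genes were called in either direction, 0.564% higher and 0.931% lower. Positive log2 fold changes were found for 20 of 23 tested neuron genes, with a median of 0.45, and for 4 of 5 tested glia and crest genes, with a median of 0.22. Over all genes tested the share was 50% and the median 0.00. A log2 fold change of at least 0.5 was found for 11 of 23 neuron genes and 1 of 5 glia and crest genes, against 1.87% of all genes tested and 7.85% of the 2625 genes with a mean under 2 CPM. At an unadjusted p below 0.05, 13 neuron genes were higher in mutant libraries and 1 lower, with 2 higher and 0 lower among glia and crest genes, where 5.89% of all genes were higher and 7.99% lower. The groups did not overlap for 6 of the 28 genes with the mutants above and for 1 with the mutants below, where 3.31% and 4.06% of all genes did so. At an adjusted p below 0.1, 6 neuron genes were higher (Ret, Gfra2, L1cam, Stmn4, Tubb3 and Uchl1) and 1 lower (Dcx), where 3.43% of all genes passed that mark and 1.34% were higher. A gene near the filter can pass it through the group in which it is high, so these counts describe the 28 genes and do not test them.

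**Figure D2:**
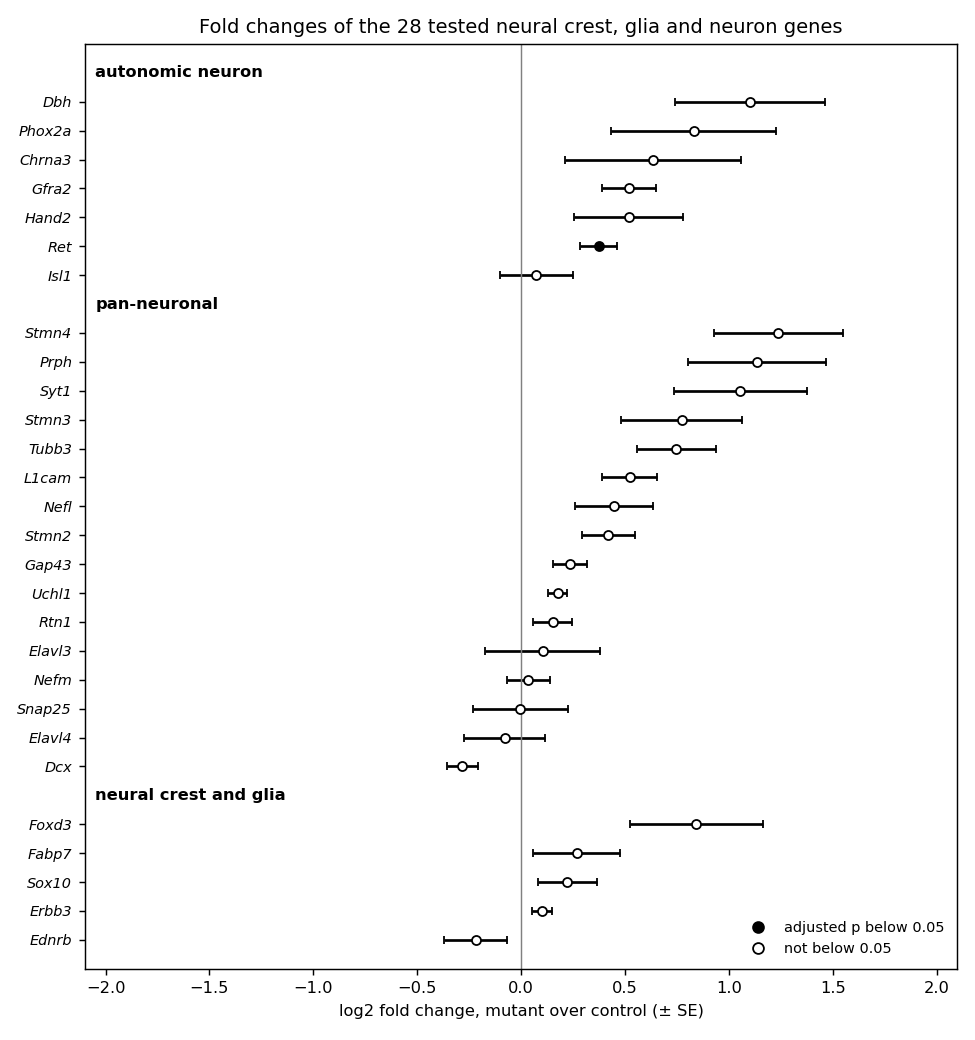
Log2 fold change of mutant over control with its SE for the 28 tested genes, by role and in descending order; the filled circle (Ret) marks an adjusted p below 0.05. Values run from 1.24 (Stmn4) to -0.28 (Dcx) among neuron genes and from 0.84 (Foxd3) to -0.22 (Ednrb) among glia and crest genes.

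Among receptors for GDNF-family ligands, Ret rose and Gfra2 did not pass. Ret, the signalling receptor of enteric and autonomic progenitors and neurons, measured 15.0, 16.6, 18.6 and 16.6 CPM in mutant replicates 1 to 4 and 11.9, 14.9, 11.5 and 13.2 CPM in control replicates 1 to 4. Every mutant library lay above every control, though mutant replicate 1 and control replicate 2 nearly met, and 3.31% of all genes had groups that did not overlap in this direction. The means were 16.7 ± 1.48 and 12.9 ± 1.53 CPM (SD, n = 4 each), a log2 fold change of 0.37, with SE 0.0895 (adjusted p = 0.0453). The call was lost without control replicate 1 (adjusted p = 0.145), control replicate 3 (0.131), control replicate 4 (0.0507), mutant replicate 2 (0.108) or mutant replicate 3 (0.107), without robust estimation (0.0717) and with the Y-linked level as a covariate (0.127). Within the 4 libraries holding both sex-linked signals the log2 fold change was 0.49 with an adjusted p of 0.0997.

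Gfra2, the co-receptor that binds neurturin, measured 22.99, 30.4, 32.4 and 27.3 CPM in mutant libraries and 17.4, 24.5, 18.2 and 18.9 CPM in controls. Mutant replicate 1 lay below control replicate 2, so the groups overlapped, and the log2 fold change of 0.52 (SE 0.13) did not pass (adjusted p = 0.0899). It passed with DESeq2 (adjusted p = 0.00082), without mutant replicate 1 (0.0149), without control replicate 2 (0.0126) and within the 4 libraries holding both signals (log2 fold change 0.73, adjusted p = 0.00454). Gfra1, the co-receptor for GDNF itself, not among the 32 genes, had a log2 fold change of 0.41, with SE 0.106 (adjusted p = 0.0776). Per kb of exon, Gfra2 was at 7.99 CPM in mutant and 5.58 in control libraries. Ret was at 2.47 and 1.90, against 0.504 and 0.285 for Phox2a. For both Ret and Gfra2, mutant replicate 1 was the lowest mutant and control replicate 2 the highest control. Replicate 1 was instead the highest of its group for 13 of 23 neuron genes, in mutants and in controls. The cell type that held the Ret and Gfra2 RNA was not tested.

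Transcription factors of autonomic neurons were low and scattered. Phox2a, which specifies noradrenergic fate, measured 1.89, 0.861, 0.732 and 0.619 CPM in mutant libraries and 0.739, 0.733, 0.621 and 0.226 CPM in controls. Mutant replicate 1 stood above all others and the remaining mutants overlapped the controls, and the log2 fold change of 0.83 (SE 0.398) did not pass (adjusted p = 0.367). Hand2, a bHLH factor of sympathetic and enteric neurons that is also expressed in other mesenchyme, had a log2 fold change of 0.52, with SE 0.263 (adjusted p = 0.395). Isl1, a LIM-homeodomain factor of several neuron classes and of cardiac progenitors, measured 3.73 ± 0.522 and 3.53 ± 1.01 CPM in mutant and control libraries, a difference within the spread between replicates (log2 fold change 0.07, SE 0.176).

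Transmitter genes gave few counts. Dbh, the enzyme that makes noradrenaline from dopamine, had 31, 33, 19 and 20 counts in mutant replicates 1 to 4 and 15, 5, 4 and 8 in control replicates 1 to 4, or 1.22, 0.676, 0.927 and 1.13 CPM against 0.792, 0.282, 0.226 and 0.451 CPM. Only control replicate 1 reached into the mutant range, and the log2 fold change was 1.10 (SE 0.359, adjusted p = 0.143). Chrna3, the nicotinic receptor subunit of autonomic ganglia, had a log2 fold change of 0.64, with SE 0.424 (adjusted p = 0.554). Th acts earlier than Dbh in the same pathway. It averaged 0.243 ± 0.0174 CPM in mutant and 0.292 ± 0.149 CPM in control libraries, on counts too few to test.

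**Figure D3:**
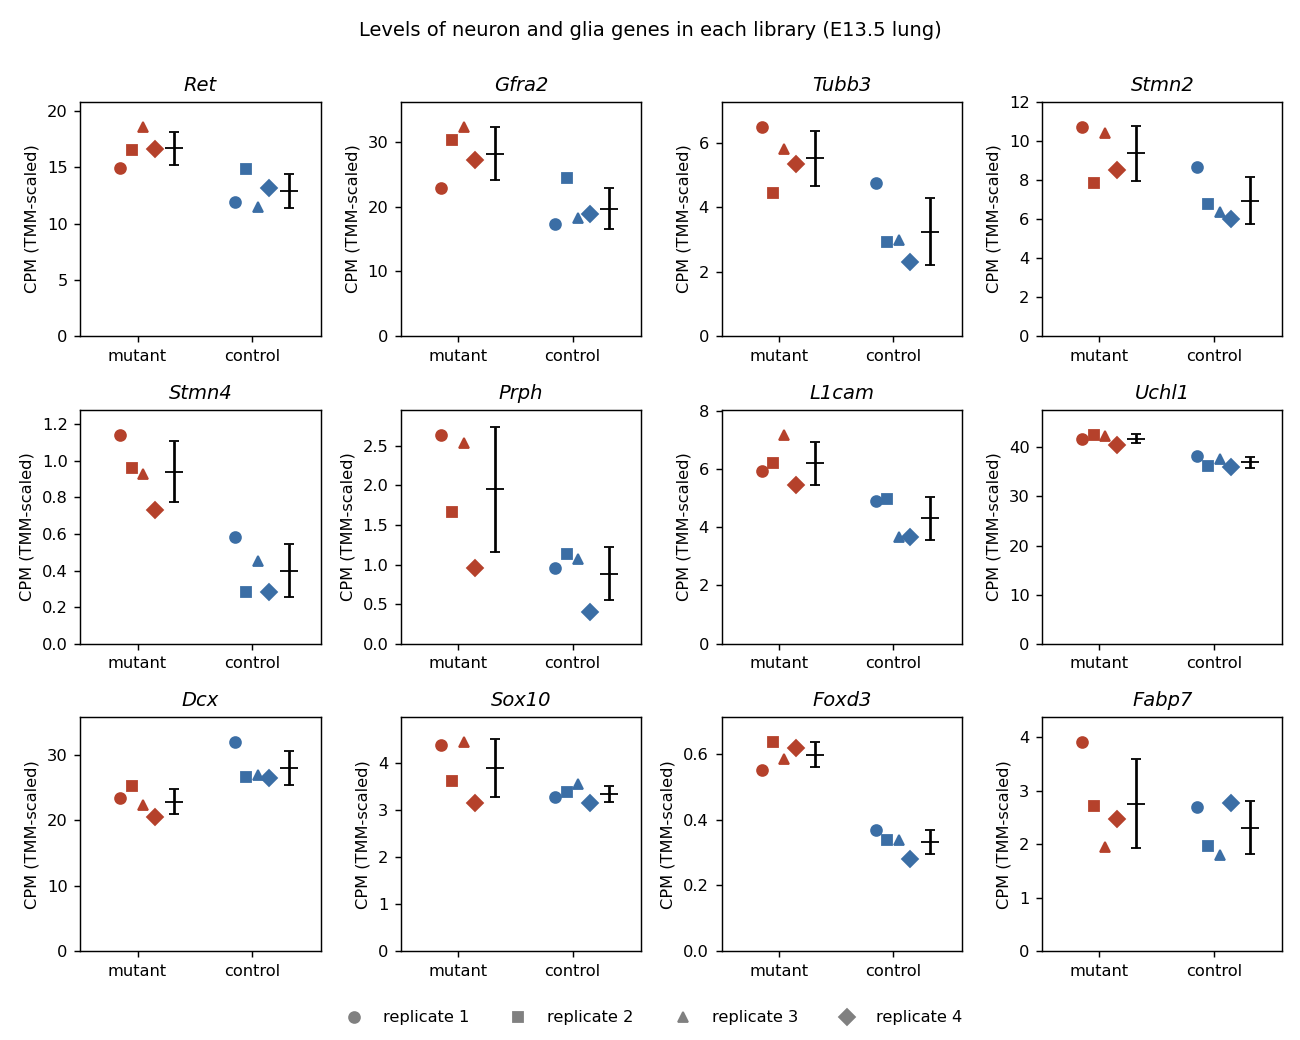
CPM per library of 12 of the 32 genes, with each replicate as its own symbol, mutant left of control, and the group mean with SD at the right of each group. Ret, Stmn4, L1cam, Uchl1 and Foxd3 do not overlap with the mutants above, Dcx does not overlap with the mutants below, and Gfra2, Tubb3, Stmn2, Prph, Sox10 and Fabp7 overlap.

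Cytoskeletal genes of neurons gave several of the highest values, of which 0 passed. Tubb3, the neuronal beta-tubulin used to stain axons, measured 6.51, 4.45, 5.81 and 5.35 CPM in mutant libraries and 4.75, 2.93, 2.99 and 2.31 CPM in controls. Control replicate 1 lay above mutant replicate 2, and the log2 fold change of 0.75 (SE 0.189) missed the threshold (adjusted p = 0.0596). It passed with DESeq2 (adjusted p = 0.0141), when control replicate 1 was left out (0.00812) and when mutant replicate 2 was (0.0465). Stathmins are phosphoproteins that destabilise microtubules in growing axons. Stmn4 measured 1.14, 0.963, 0.927 and 0.732 CPM in mutant libraries and 0.581, 0.282, 0.452 and 0.282 CPM in controls, on 5 to 11 counts per control library. Its groups did not overlap, and its log2 fold change of 1.24, with SE 0.31 (adjusted p = 0.053), was the highest of the 28.

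The other stathmins pointed the same way without passing. Stmn3 measured 1.34, 0.881, 0.927 and 0.732 CPM in mutant libraries and 0.686, 0.564, 0.395 and 0.620 CPM in controls, also without overlap (log2 fold change 0.77, SE 0.291, adjusted p = 0.219). Stmn2, the most abundant per kb of the 3, measured 10.7, 7.85, 10.4 and 8.50 CPM in mutant libraries and 8.66, 6.76, 6.38 and 5.98 CPM in controls (log2 fold change 0.42, SE 0.129, adjusted p = 0.117). Control replicate 1 was the control with the highest value for Stmn2, Stmn3 and Stmn4, and mutant replicate 1 the mutant with the highest.

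Intermediate filament genes gave unequal values. Prph, the peripherin of peripheral neurons, measured 2.64, 1.66, 2.54 and 0.957 CPM in mutant libraries and 0.950, 1.13, 1.07 and 0.395 CPM in controls, so that mutant replicate 4 lay among the controls (log2 fold change 1.14, SE 0.334, adjusted p = 0.109). It passed without mutant replicate 4 (log2 fold change 1.32, adjusted p = 0.018). Nefl, the light neurofilament chain, had a log2 fold change of 0.45, with SE 0.187 (adjusted p = 0.293). Nefm, the middle chain, averaged 10.9 ± 1.15 CPM in mutant and 10.5 ± 1.41 CPM in control libraries (log2 fold change 0.03, SE 0.104). Nefl and Nefm lie on opposite strands of chromosome 14 with overlapping annotations (68083863 to 68089095 and 68082590 to 68124846, GRCm38), and per the file header the counting used strand.

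L1cam, an adhesion molecule of axons and Schwann cells, measured 5.91, 6.19, 7.17 and 5.46 CPM in mutant libraries and 4.91, 4.96, 3.67 and 3.66 CPM in controls. All mutants lay above all controls, and the log2 fold change of 0.52 (SE 0.133) just missed the threshold (adjusted p = 0.0555); it passed with DESeq2 (0.04). Uchl1, a ubiquitin hydrolase stained as PGP9.5 to trace nerves, measured 41.8, 42.6, 42.3 and 40.4 CPM in mutant libraries and 38.2, 36.2, 37.7 and 35.9 CPM in controls. The groups were narrow and did not overlap, for a log2 fold change of 0.18, with SE 0.0464 (adjusted p = 0.0597). Gap43 had a log2 fold change of 0.23, with SE 0.0833 (adjusted p = 0.187) and Rtn1, a reticulon of the neuronal endoplasmic reticulum, 0.15 (SE 0.0949, adjusted p = 0.516).

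Among the vesicle fusion genes, Syt1, the calcium sensor of transmitter release, measured 1.46, 0.902, 1.71 and 1.01 CPM in mutant libraries and 1.003, 0.451, 0.395 and 0.507 CPM in controls (log2 fold change 1.06, SE 0.322, adjusted p = 0.109). Control replicate 1 alone among controls reached the mutant range. Its partner Snap25, a SNARE protein of the plasma membrane, averaged 1.03 ± 0.12 CPM in mutant and 1.01 ± 0.163 CPM in control libraries, with a log2 fold change of 0.00 (SE 0.23). The RNA-binding proteins Elavl3 and Elavl4, early markers of neuronal commitment, had log2 fold changes of 0.10 (SE 0.277) and -0.08 (SE 0.194), both within their errors.

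Dcx had a negative value. This microtubule-associated protein of migrating neurons measured 23.4, 25.2, 22.3 and 20.5 CPM in mutant libraries and 31.9, 26.6, 27.0 and 26.4 CPM in controls. All mutants lay below all controls, as in 4.06% of all genes, for a log2 fold change of -0.28, with SE 0.0756 (adjusted p = 0.0641); DESeq2 called it (adjusted p = 0.04). At 1.81 and 2.21 CPM per kb in mutant and control libraries, Dcx was of the same order as Tubb3 at 2.96 and 1.74. Dcx and L1cam both lie on the X chromosome, and within the 4 libraries holding both signals their log2 fold changes were -0.44 for Dcx (adjusted p = 0.0984) and 0.57 for L1cam (adjusted p = 0.395).

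Of the 5 tested glia and crest genes 0 passed in edgeR, with Foxd3 and Erbb3 higher at an unadjusted p below 0.05, and 0 passed with DESeq2, which gave Foxd3 no adjusted p. Sox10, the factor that keeps crest and glial identity, measured 4.38, 3.63, 4.44 and 3.15 CPM in mutant libraries and 3.27, 3.38, 3.56 and 3.16 CPM in controls. Mutant replicate 4 lay level with the lowest control and the log2 fold change of 0.22 (SE 0.141) did not pass (adjusted p = 0.526). Foxd3, a factor of early crest and glial precursors, had 14, 31, 12 and 11 counts in mutant libraries and 7, 6, 6 and 5 in controls, or 0.552, 0.635, 0.586 and 0.619 CPM against 0.370, 0.338, 0.339 and 0.282 CPM. Its groups did not overlap, and the log2 fold change was 0.84 (SE 0.32, adjusted p = 0.225).

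The remaining glia and crest genes did not separate the groups. Fabp7, a lipid-binding protein of glial precursors, measured 3.90, 2.71, 1.95 and 2.48 CPM in mutant libraries and 2.69, 1.97, 1.81 and 2.76 CPM in controls (log2 fold change 0.27, SE 0.209, adjusted p = 0.632). Erbb3, the neuregulin receptor on which Schwann cell precursors depend, averaged 67.7 ± 2.15 CPM in mutant and 63.2 ± 3.85 CPM in control libraries (log2 fold change 0.10, SE 0.0467, adjusted p = 0.353). Ednrb, the endothelin receptor that enteric crest cells need to colonise the gut, measured 74.4, 99.6, 111 and 109.9 CPM in mutant libraries and 122, 124, 97.2 and 115 CPM in controls. Mutant replicate 1 was the lowest of the 8 and the log2 fold change was -0.22 (SE 0.15, adjusted p = 0.602).

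Neurons and glia were also set side by side within each library, as the mean difference in log2 CPM from the control mean over the tested genes of each class. For the 23 neuron genes it was 0.66, 0.32, 0.55 and 0.32 in mutant replicates 1 to 4 and 0.30, -0.11, -0.00 and -0.19 in control replicates 1 to 4. The mutants lay above the controls, with control replicate 1 close to mutant replicates 2 and 4. For the 5 glia and crest genes it was 0.23, 0.22, 0.19 and 0.18 in mutant libraries and 0.08, 0.01, -0.11 and 0.02 in controls. Foxd3 has the highest value of the 5 on few counts, and the other 4 genes overlap between the groups. The summed level of the 7 listed glia and crest genes, mostly Ednrb and Erbb3, overlapped between the groups. It was 148, 176, 187 and 186 CPM in mutant libraries and 191, 196, 162 and 189 CPM in controls. Mutant replicate 1 had the highest mutant value for 13 of 23 neuron genes and control replicate 1 the highest control value for 13 of 23, while mutant replicate 2 had the lowest mutant value for 11. No test was made of the difference between the classes, so neurons are not shown to differ from glia.

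**Figure D4:**
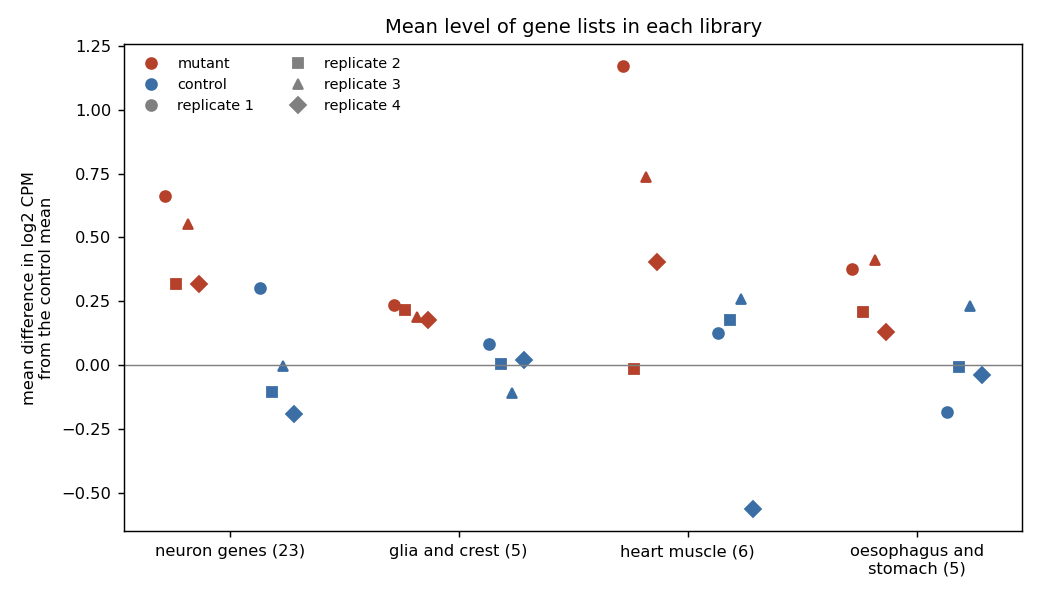
Mean difference in log2 CPM from the control mean, per library, over 23 neuron genes, 5 glia and crest genes, 6 heart muscle genes and 5 oesophagus and stomach genes; each replicate has its own symbol and mutants stand left of controls. Neuron, glia and crest values of mutants lie above those of controls, heart muscle is highest in mutant replicates 1 and 3, and mutant replicate 2 lies within the controls for heart muscle.

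Further genes of the same cells, listed apart from the 32, were counted in the same fit. Over all genes tested, 0.564% were called higher and 0.931% lower, and 50% had positive values. At an unadjusted p below 0.05 in edgeR, 5.89% were higher and 7.99% lower. These shares apply to each list below. Of 20 tested pan-neuronal genes 2 rose and 0 fell, with a median log2 fold change of 0.18 and 15 positive values. Celf3, a neuronal RNA-binding protein, measured 4.53, 3.96, 5.03 and 3.996 CPM in mutant libraries and 3.12, 2.54, 2.15 and 2.09 CPM in controls, without overlap (log2 fold change 0.81, SE 0.155, adjusted p = 0.0132). Dpysl3, a collapsin response mediator of growing axons that is also expressed in mesenchyme, averaged 77.5 ± 2.59 CPM in mutant and 64.5 ± 3.45 CPM in control libraries (log2 fold change 0.26, SE 0.0447, adjusted p = 0.00506). Nsg1, the second most abundant of the list, had a log2 fold change of -0.06 (SE 0.0444). Celf3 missed the threshold in 3 and Dpysl3 in 1 of 15 alternatives.

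Of 11 tested autonomic genes 2 rose and 0 fell, with a median of 0.15 and 6 positive values. Ntrk3, the receptor for neurotrophin-3, measured 5.24, 5.08, 4.64 and 4.50 CPM in mutant libraries and 3.91, 3.10, 3.16 and 2.93 CPM in controls (log2 fold change 0.58, SE 0.13, adjusted p = 0.0334). Ddc, the decarboxylase of catecholamine and serotonin synthesis, averaged 15.3 ± 0.88 CPM in mutant and 12.4 ± 0.362 CPM in control libraries (log2 fold change 0.30, SE 0.0731, adjusted p = 0.0459). In both, every mutant lay above every control; Ntrk3 missed the threshold in 8 and Ddc in 11 of 15 alternatives. Of 11 tested glia and crest genes 0 passed in either direction, 0 higher and 1 lower at an unadjusted p below 0.05, with a median of -0.01. That gene was Ngfr, the p75 neurotrophin receptor of crest, glia and mesenchyme, at 38.6 ± 5.12 CPM in mutant and 48.7 ± 4.36 CPM in control libraries (log2 fold change -0.35, SE 0.0943, adjusted p = 0.11). Metrn, the most abundant, had -0.08 (SE 0.11).

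**Figure D5:**
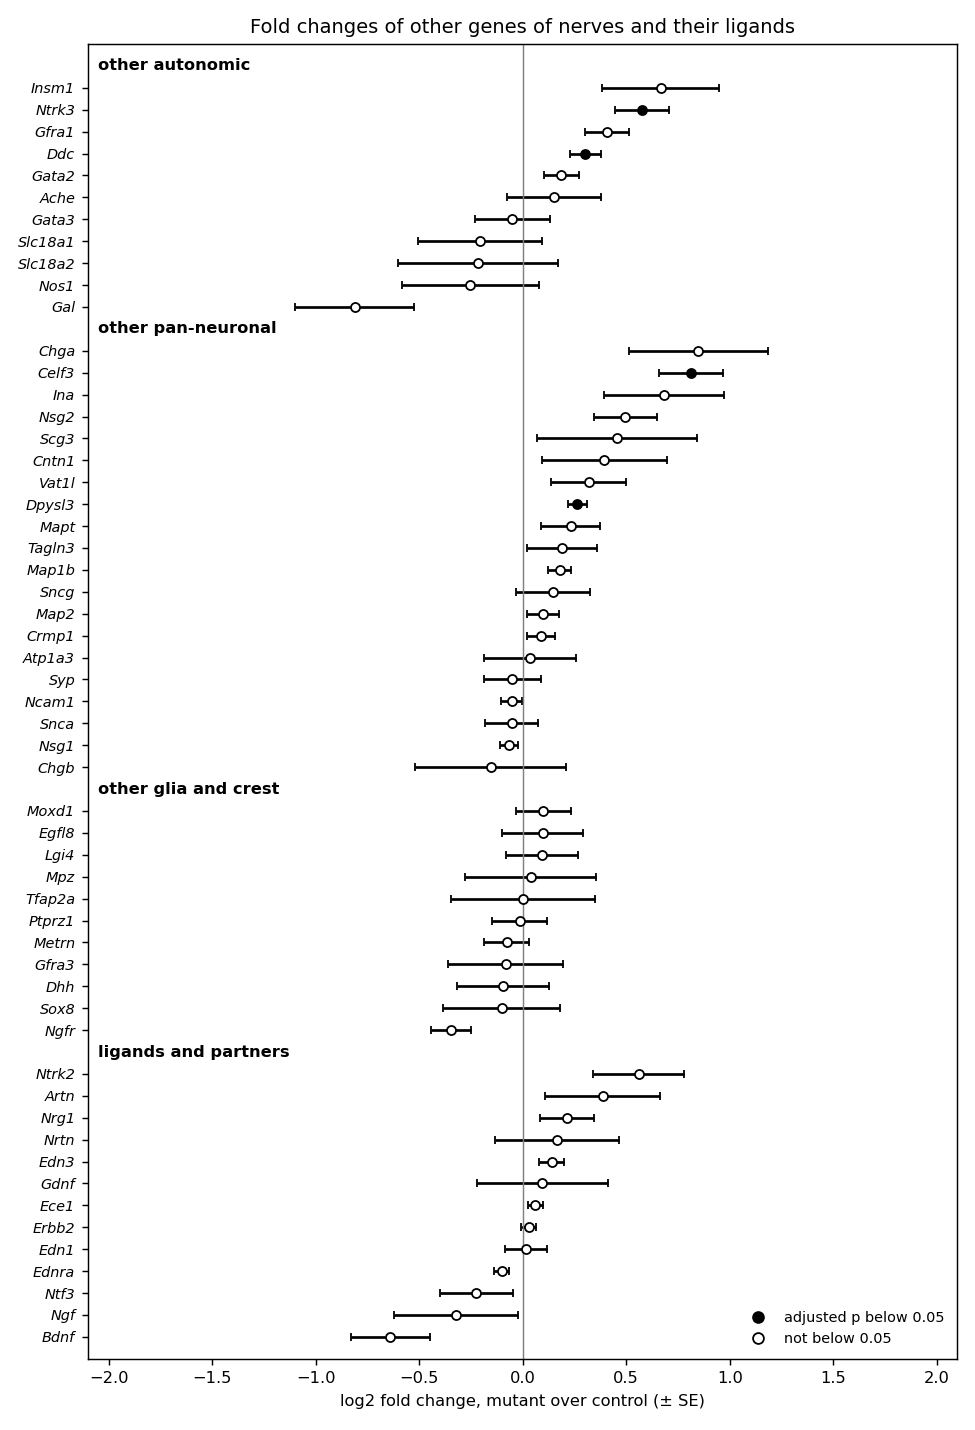
Log2 fold change of mutant over control with SE for further autonomic, pan-neuronal, glia and crest genes and for ligands and partner receptors, in descending order within each list; filled circles mark an adjusted p below 0.05. The 4 filled circles are Ntrk3, Ddc, Celf3 and Dpysl3, and the glia and crest genes lie close to 0 except Ngfr.

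Of 13 tested ligands and partner receptors 0 passed in either direction, with a median of 0.06. At an unadjusted p below 0.05, 2 were higher and 2 lower, where 5.89% of all genes were higher and 7.99% lower. The most abundant were the endothelin receptor Ednra (log2 fold change -0.10, SE 0.0357, adjusted p = 0.187) and the endothelin-converting enzyme Ece1 (0.06, SE 0.0351). The genes that follow were chosen after their values were seen. Ntrk2, the receptor for Bdnf, had a log2 fold change of 0.56 (SE 0.218) and did not pass (adjusted p = 0.238). Ntf3, the ligand of Ntrk3, was at -0.22 on the log2 scale (SE 0.176, adjusted p = 0.632). Gdnf averaged 0.724 ± 0.27 CPM in mutant and 0.722 ± 0.212 CPM in control libraries, and Nrtn, which encodes neurturin, 1.42 ± 0.33 and 1.31 ± 0.704 CPM. Edn3, the ligand of Ednrb, had a log2 fold change of 0.14, with SE 0.0608 (adjusted p = 0.303) and Nrg1, the ligand of Erbb3, 0.22 (SE 0.129, adjusted p = 0.497). Bdnf, a neurotrophin, measured 1.97, 1.29, 1.76 and 1.29 CPM in mutant libraries and 2.59, 2.20, 2.71 and 2.26 CPM in controls, without overlap but without passing (log2 fold change -0.64, SE 0.191, adjusted p = 0.102).

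Markers of other neurons and of neighbouring tissue were measured beside these values. Of 10 listed sensory neuron genes 2 passed the low-count filter, Avil and P2rx3, with group means between 0.913 and 1.35 CPM and log2 fold changes of 0.13 (SE 0.229) and -0.15 (SE 0.232). Pou4f1, a defining sensory factor, averaged 0.287 and 0.360 CPM in mutant and control libraries. Of 6 central nervous system genes only Slc1a2, which is not exclusive to brain, was tested, and the forebrain factors Neurod2 and Neurod6 averaged at most 0.0141 CPM in either group. The melanocyte enzyme genes Tyr and Tyrp1 were at or below 1 count in every library, and the tested genes of that list, Mitf and Pmel, had log2 fold changes of -0.17 (SE 0.191) and 0.00 (SE 0.247). Of 7 airway neuroendocrine genes 4 were tested and 0 passed in edgeR, with 1 higher and 0 lower at an unadjusted p below 0.05. Their median log2 fold change was -0.07, with 1 positive and 3 negative values. Cplx2, a complexin and the most abundant gene of that list, was at 107 ± 4.78 CPM in mutant and 110 ± 5.17 CPM in control libraries. The other tested genes, Calca, Scg5 and Syn2, had group means between 0.510 and 1.31 CPM. Syn2 was the higher gene (log2 fold change 0.68, SE 0.291, adjusted p = 0.299). Whether Cplx2 RNA came from neuroendocrine cells was not tested.

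Heart muscle markers were also higher in some mutant libraries. All 6 tested of 8 listed genes had values above 0 (median 0.55); 0 passed in edgeR, with 1 higher and 0 lower at an unadjusted p below 0.05. The summed level of all 8 listed genes was 90.7 to 149 CPM in mutant libraries and 62.8 to 104 CPM in controls. Actc1, cardiac actin, had the highest mean level and a log2 fold change of 0.21 (SE 0.192). Myh6, the atrial myosin, measured 33.8, 2.42, 12.01 and 7.94 CPM in mutant libraries and 3.48, 5.19, 9.88 and 2.20 CPM in controls, and Nkx2-5 was below 1 CPM in every library. Nppa, an atrial peptide, had 24, 0, 3 and 1 counts in mutant replicates 1 to 4 and 0, 1, 0 and 0 in control replicates 1 to 4, so that mutant replicate 1 stood apart. Mutant replicate 1, highest for heart muscle, was also highest for Phox2a, Hand2, Prph, Nefl and Stmn3. It had the highest mutant value for 13 of 23 neuron genes and the lowest for 2, Ret and Gfra2. Control replicate 1 had the highest control value for 13 of 23, with a mean heart muscle difference in log2 CPM of 0.12. That difference was 0.18, 0.26 and -0.56 in control replicates 2 to 4. Without mutant replicate 1 the median log2 fold change of the neuron genes was 0.35 and 18 of 23 were positive. In the oesophagus and stomach list, 5 of 8 genes tested, Tbx1 and Sox2, the second also a factor of airway epithelium, rose (log2 fold changes 0.34, SE 0.0611, adjusted p = 0.00852, and 0.53, SE 0.0823, adjusted p = 0.00282), and 4 of the 5 had positive values, with a median of 0.32. Barx1 was at 0.32 (SE 0.319), Nkx6-1 at 0.23 (SE 0.214) and Trp63 at -0.01 (SE 0.254) on the log2 scale, none passing. Barx1, Trp63, Krt13, Krt4 and Pitx1 averaged under 1 CPM. Untested Krt13, Krt4 and Pitx1 were at 0.0637, 0.0359 and 0.264 CPM in mutant and 0.154, 0.0696 and 0.343 CPM in control libraries. The summed level of the 8 listed genes, mostly Tbx1 and Sox2, did not overlap between the groups. It was 56.2 to 62.8 CPM in mutant libraries and 42.8 to 49.5 CPM in controls. The mean difference in log2 CPM over the 5 tested genes did overlap. It was 0.13 to 0.41 in mutant libraries and -0.18 to 0.23 in controls. Of 10 mesothelial genes 4 fell and 0 rose (Upk3b, Wt1, Gpm6a and Lrrn4), where 0.931% of all genes fell and 0.564% rose. Aldh1a2, among the most abundant, was at -0.41 on the log2 scale (SE 0.0963, adjusted p = 0.087). Of 6 skeletal muscle genes 3 were tested and 0 passed, with Mylpf at 0.37 (SE 0.194) and Tnnt3 at 0.27 (SE 0.167) on the log2 scale, and the untested Myh3 at 7.82 CPM in mutant replicate 4. The part of these tissues in the neuron values was not tested.

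The same genes were also counted with the sex-linked differences between libraries taken into account. Within the 4 libraries holding both signals, 19 of 23 neuron genes and 3 of 5 glia and crest genes had values above 0, with medians of 0.35 and 0.10. With the Y-linked level as a covariate over all 8 libraries the same counts were 19 of 23 and 3 of 5, the medians were 0.34 and 0.07, and 0 of the 32 genes passed in edgeR. Of all genes tested, 0.546% were called in the 4 libraries and 0.602% with the covariate. The number of the 32 genes called depended on the method. It was 5 with DESeq2 (Ret, Gfra2, Tubb3 and L1cam higher, Dcx lower), where 2.61% of the 14561 genes with an adjusted p were called. DESeq2 gave no adjusted p to Foxd3, Phox2a, Dbh, Chrna3, Stmn3 and Stmn4, so these could not be called there. With no filter on low counts the number was 11, 10 higher and 1 lower. All 11 are among the 28 that pass the filter, and 4.76% of the 15788 genes that pass it were called in that setting (2.65% of all genes then tested). Without mutant replicate 4 it was 4, where 2.99% of all genes were called.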

How the data were processed

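Lung RNA was extracted with TRIzol LS and an RNeasy micro column and made into stranded mRNA libraries, per the labels' protocols. The authors deposited raw counts per gene: per the file header, featureCounts 1.6.4 summed read pairs over exons with strand option 2 and a GENCODE vM25 annotation (GRCm38). STAR and DESeq2 are named in the submitters' processing notes, with no version for STAR.

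From these counts all genes were fitted in edgeR 4.0.16 (R 4.3.3, limma 3.58.1) with filterByExpr, TMM and the robust quasi-likelihood F test, with Benjamini-Hochberg adjustment over the 15788 genes tested and a threshold of 0.05, two-sided. SE is the absolute log2 fold change divided by the square root of F. CPM per kb used exon lengths in the file. List levels per library used log2 CPM with a prior count of 2. The fit was tested on simulated data.

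The 32 genes and all lists were chosen with earlier results of these data known. All 32 are named. From the other lists the genes past the threshold and the 2 with the highest mean level are named. Further genes were chosen after their values were seen (ligands, Ntrk2, Nkx6-1, Pou4f1, Neurod2, Neurod6, Tyr, Tyrp1, Calca, Scg5, Syn2, Nppa, Nkx2-5, Barx1, Trp63, Krt13, Krt4, Pitx1, Myh3). Tbx5 and Slc17a7, also taken by that rule, are not described. The results of 3 genes of the other lists are not reported here, and the counts given for their lists leave them out. Alternatives were DESeq2 1.42.0, its size factors in edgeR, no filter, no robust estimation, a replicate block, the Y-linked level as a covariate and leaving out each library; the fit of the 4 libraries with both sex-linked signals was chosen after seeing the data. Promoter sequences are RefSeq's (GRCm38.p6).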

Additional observations from a re-analysis of the deposited data

Results flagged for a closer look

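Among 60 groups of 4 libraries screened, 2 values stood far from the other 3 of their group, where chance flags about 1 in 20 groups. Rtn1 was at 12.4 CPM in mutant replicate 3, with the other mutants between 13.2 and 13.3 CPM. Dcx was at 31.9 CPM in control replicate 1, with the other controls between 26.4 and 27.0 CPM.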

How the results depend on the processing

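The 1 of 32 genes called in edgeR became 5 with DESeq2, 11 with no filter on low counts, 0 without robust estimation and 0 with the Y-linked level as a covariate; over all genes tested the 236 calls became 380, 791, 142 and 95, and 87 within the 4 libraries holding both sex-linked signals. Leaving out 1 library gave 0 (for example without control replicate 3) to 4 (without mutant replicate 4) of the 32 genes and 96 to 479 of all genes, from the same 2 libraries. The median of the neuron genes kept its sign throughout, between 0.34 and 0.55, and that of the glia and crest genes was 0.0722 with the covariate. The cause of these moves was not tested.

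With the replicate number as a block, 9 of the 32 genes and 541 of all genes were called. Deviations of same-numbered libraries correlated at 0.0811, 0.0648, 0.181 and 0.0125 in replicates 1 to 4. Mutant replicates 2 and 3 correlated best with the same-numbered control. Mutant replicate 1 correlated best with control replicate 4 (0.133), and mutant replicate 4 with control replicate 1 (0.0213). These values do not settle whether the numbers are pairs, which the labels do not state, so the main fit used no block.

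The log2 fold changes that changed sign belonged to 6 genes that were not called. Snap25 had 0.00612 with DESeq2, 0.0155 with no filter, 0.0185 with the replicate block, 0.0655 with the covariate, 0.135 in the 4 libraries and -0.0769 to 0.106 leaving out 1 library. With the covariate, Fabp7 had -0.0536, Isl1 -0.0514, Elavl3 -0.0997, Elavl4 0.00629 and Nefm -0.118. In the 4 libraries they had -0.301, -0.0889, -0.000733, 0.191 and -0.0581, in that order. Leaving out 1 library gave -0.0487 to 0.288 for Isl1, -0.0862 to 0.411 for Elavl3, -0.16 to 0.0646 for Elavl4 and -0.0322 to 0.122 for Nefm. Foxd3 was tested in 13 of 15 alternatives.

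Depth limits the genes under 1 CPM, where a control library often held 5 to 15 counts, and 3 counts equal 0.0616 CPM in the deepest library and 0.169 CPM in the shallowest.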
